A study of Caenorhabditis elegans with 8 samples.

Results

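C-type lectin genes (clec genes) were examined in Caenorhabditis elegans larvae of the first stage (L1) held without food, across wild type and 3 groups mutant for enzymes that modify histone H3. The members are the genes whose RefSeq symbol is clec- followed by a number. Each gene is represented by the transcript whose base means, added over the authors' 3 deposited tables, were largest, and that sum had to be above 0. This gave 223 genes, all protein coding, out of 27913 gene symbols with a base mean above 0. The RefSeq gene table holds 264 clec symbols. Of these, 30 had no matching transcript, 25 of them pseudogenes, and are not analysed here, and another 11 were listed at 0 in all 3 tables. The member with the lowest sum inside the rule was clec-231, at 0.219.

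The protein fold that names the family, the C-type lectin-like domain, was first described in animal proteins that bind sugars with the help of calcium. In C. elegans the family is large. Many members lack the residues used for sugar binding, and many are predicted to be secreted. Several are switched on in the intestine when the worm meets bacterial pathogens, so the family is usually read as part of innate immunity, although most members have no assigned function.

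There were 4 groups of 2 libraries each, made from total RNA of 200 to 250 pooled whole larvae that hatched without food in M9 buffer at 21 to 22 °C, from cultures grown at 20 °C on OP50 bacteria. N2 was the wild-type strain, and the mutants were spr-5(by101), met-2(n4256) and the double mutant, labelled spr-5; met-2, which carries both alleles. spr-5 encodes an H3 lysine 4 demethylase and met-2 an H3 lysine 9 methyltransferase, and the study compared each mutant group with N2. The labels name no separate cultures, so p-values measure only the spread between these libraries, which may be technical.

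Every fold change, standard error, base mean and p-value of a gene below is the authors' own, from the deposited DESeq2 table of that mutant against N2. Base means are scaled reads averaged over the 4 libraries of a comparison, so a base mean of 10 stands for about 40 scaled reads in all. No column holds the value of a single library, and whether libraries of 2 groups overlap cannot be shown for any gene. The base means of a table summed to 5216670 for spr-5, 4831480 for met-2 and 4969240 for the double mutant. In whole animals, fewer cells of a type and less RNA per cell cannot be told apart. The spr-5 transcript had log2 fold changes of 0.90 (SE 0.74) in spr-5 larvae, 0.56 (SE 0.69) in met-2 larvae and 1.26 (SE 0.95) in the double mutant by the authors' deposited tables. For the met-2 transcript they gave 0.11 (SE 0.74), -0.43 (SE 0.69) and -0.45 (SE 0.97) in that order. Neither passed the adjusted p of 0.05 in any comparison, so these transcripts do not check the labels. Of 38 tissue markers written for muscle, neurons, hypodermis, germline and intestine, elt-3, a hypodermal transcription factor, was listed at 0 in each of the authors' deposited tables.

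Most clec genes were sparsely read in starved L1 larvae. The median base mean of the 223 members was 7.03 in the authors' deposited spr-5 table, 6.70 in the met-2 one and 4.63 in that of the double mutant. A base mean of at least 10 was reached by 97, 99 and 79 members in the same order, and 108 members stayed under 10 in all 3 of the authors' deposited tables. Of all base means, the members together took 0.438% in the authors' deposited double-mutant table, 0.495% in that of spr-5 and 0.550% in the met-2 one.

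A single gene, clec-63, held more than all other members together. The authors' deposited tables gave it a base mean of 13862 for spr-5, 14320 for met-2 and 12806 for the double mutant, which was 53.7%, 53.9% and 58.8% of the family's total. Per kilobase of coding length, its base mean was 11243 in the spr-5 table. The next highest members per kilobase there were clec-1 at 2716, clec-17 at 1252, clec-90 at 905 and clec-65 at 890, from the authors' base means. The fold changes of clec-63 lay close to 0, with log2 values of -0.05 (SE 0.72) in spr-5 larvae, 0.19 (SE 0.65) in met-2 larvae and 0.05 (SE 0.91) in the double mutant by the authors' deposited tables. For clec-1 the authors' deposited tables gave 0.08 (SE 0.77), -0.07 (SE 0.77) and -0.62 (SE 1.15) in that order. For clec-65, a neighbour of clec-63, they gave 0.12 (SE 0.72), -0.17 (SE 0.66) and -0.53 (SE 0.92). For clec-50 the values were -1.08 (SE 0.82), 0.14 (SE 0.78) and -1.46 (SE 1.07), and clec-83 had -1.15 (SE 0.75), -0.17 (SE 0.68) and 0.09 (SE 0.98), per the authors' deposited tables. Of the 5 members with the largest summed base means, clec-17 alone had a fold change in the double mutant with an unadjusted p under 0.05.

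**Figure D1:**
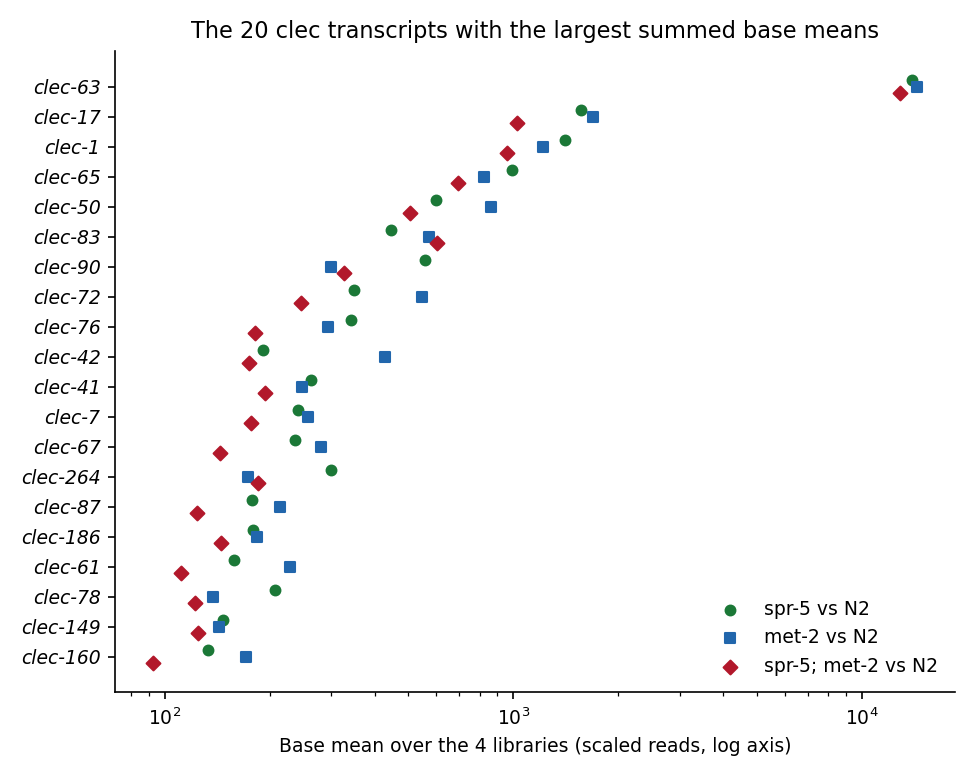
Base mean (scaled reads over the 4 libraries of a comparison, log axis) of the 20 clec transcripts with the largest summed base means, with 1 point for each of the authors' deposited tables. clec-63 lies at 12806 to 14320, and the next, clec-17, at 1021 to 1688.

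Loss of SPR-5 alone left no clec gene past the authors' adjusted p of 0.05, among 221 tested. Over all transcripts of that deposited table of the authors, 0.0101% passed. At an unadjusted p under 0.05, 1 member was higher and 0 were lower, where 0.871% of all transcripts were higher and 0.283% lower. From a base mean of 10 upwards, these shares of all transcripts were 2.04% and 0.663%, and the member counts were the same. The median log2 fold change of the members was 0.08, beside 0.06 over all transcripts tested in the authors' deposited table. Among the 97 members reaching a base mean of 10 the median turned negative, at -0.22 beside -0.01 for all such transcripts, and 62 of the 97 lay below 0. Among the 38 members reaching a base mean of 50 it was -0.56 beside -0.02, with 28 below 0. This came from base means of 50 to 200, where the median was -0.69 beside -0.05 and 21 of 24 members lay below 0. Above 200 the median was 0.015 beside 0.0018, and 7 of 14 lay below 0.

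The member with the low p in spr-5 larvae was clec-78, whose coding length of 10542 bp stands far above the family's median of 948 bp and is the longest of all members. For clec-78 the log2 fold change in the authors' deposited spr-5 table was 1.58 (SE 0.78, unadjusted p 0.0421, base mean 208). In met-2 larvae that of clec-78 was 1.06 (SE 0.78) and in the double mutant 1.05 (SE 1.00), per the authors' deposited tables. The other largest positive values in spr-5 larvae came from genes with base means under 50: clec-102 at 1.42 (SE 0.89), clec-266 at 1.40 (SE 0.90), clec-6 at 1.29 (SE 0.93) and clec-140 at 1.27 (SE 0.93) in the authors' deposited table. clec-266 overlaps kqt-1 on the opposite strand, and clec-140 overlaps T05A7.3 and hmg-11 on its own strand, so their reads are uncertain. The lowest values in the authors' deposited spr-5 table were -1.57 (SE 0.89) for clec-42, -1.29 (SE 0.79) for clec-72, -1.16 (SE 0.85) for clec-184, -1.15 (SE 0.75) for clec-83 and -1.14 (SE 0.93) for clec-165. clec-83 overlaps Y54G2A.7 on the opposite strand and clec-165 overlaps F38A1.9 on its own strand. None of these had an unadjusted p under 0.05.

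Loss of MET-2 alone also left 0 of 216 tested members past the authors' adjusted p of 0.05, beside 0.031% of all transcripts. At an unadjusted p under 0.05, 5 members were higher and 2 lower in the authors' deposited table. These were 2.31% and 0.926% of the members tested, beside 0.901% and 0.519% of all transcripts. From a base mean of 10 upwards, the same 5 were 5.05% of 99 members, beside 2.07% of all such transcripts, and the 2 lower members were 2.02% beside 1.21%. Of the 5, clec-47, clec-59, clec-60 and clec-255 had base means under 10 in the other comparisons. They reached 10 here through the libraries in which they were high, so the share from that cut adds no support. The median log2 fold change of the members was -0.02, beside 0.01 over all transcripts of the authors' deposited table, and 114 of 216 members lay below 0.

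The positive group in met-2 larvae held clec-60, a lectin gene known to be switched on in the intestine by bacterial infection. For clec-60 the log2 fold change in the authors' deposited met-2 table was 1.69 (SE 0.85, unadjusted p 0.0469). The base mean of clec-60 was 44.7 in the met-2 table of the authors, 8.95 in that of spr-5 and 9.46 for the double mutant, all 3 with the same N2 libraries. Each averages the mutant with N2, so it restates the fold change and adds no support to it. A same-strand pseudogene overlaps clec-60, so some of its reads may belong to either. In the same part of chromosome II, clec-59 stands 1 gene away from clec-60, and the authors' deposited met-2 table gave it 1.92 (SE 0.91, unadjusted p 0.0342). On the other side, with 2 genes between, clec-61 had 0.29 (SE 0.70) in met-2 larvae, -0.86 (SE 0.77) in spr-5 larvae and -1.995 (SE 1.16) in the double mutant by the authors' deposited tables. In the double mutant, clec-59 had -0.93 (SE 1.18) and clec-60 had -0.55 (SE 1.34) in the authors' deposited table. The base mean of clec-59 was only 1.63 there, so both values rest on few reads.

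The remaining positive members in met-2 larvae lay apart from these. The authors' deposited met-2 table gave clec-255 a log2 fold change of 2.02 (SE 0.90, unadjusted p 0.0251, base mean 12.6) and clec-47 one of 1.93 (SE 0.91, unadjusted p 0.0327, base mean 21.6). clec-138 had 1.83 (SE 0.83, unadjusted p 0.0278, base mean 54.6) there, in the authors' deposited table. clec-138 sits in a row of clec-136 to clec-139 on chromosome II, and its direct neighbours did not share its value: clec-137 had -0.38 (SE 0.81) and clec-139 had -0.53 (SE 0.83) in the authors' deposited met-2 table. On the negative side, the authors' deposited table gave clec-71 -1.93 (SE 0.86, unadjusted p 0.0249) and clec-153 -1.70 (SE 0.83, unadjusted p 0.0405). The others among the lowest were clec-240 at -1.76 (SE 0.90), clec-12 at -1.42 (SE 0.83) and clec-146 at -1.13 (SE 0.83) in the authors' deposited met-2 table, without an unadjusted p under 0.05.

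In the double mutant 0 of 213 tested members passed the authors' adjusted p of 0.05, beside 0.315% of all transcripts, but the members lay lower than transcripts in general. The transcripts that passed were mostly higher, 78 of them beside 9 lower. At an unadjusted p under 0.05, 11 members were lower and 2 higher in the authors' deposited table. The lower ones were 5.16% of the members, beside 1.07% of all transcripts, and the higher ones 0.939% beside 1.74%. The median log2 fold change was -0.63, beside -0.17 for all transcripts there by the authors' deposited table, and 156 of 213 members lay below 0, which is 73.2% beside 56.8% of all transcripts. No test was made of the members against other transcripts, and members are not independent replicates.

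Under a base mean of 1 the members and all transcripts shared a median of -0.31 in the authors' deposited double-mutant table, and at every higher level the members lay lower. For base means from 1 to 10 the median of 93 members was -0.71, beside -0.27. For base means from 10 to 50 the median of 40 members was -0.65 beside -0.10. For base means from 50 to 200 it was -0.77 for 31 members, beside 0.01 for all transcripts. Above 200 it was -0.57 for 8 members, beside 0.13. From a base mean of 10 upwards, 29 of 79 members had a log2 fold change of -1 or less, 36.7% beside 12.6% of all such transcripts in the authors' deposited table. By the same measure 9 members had 1 or more, 11.4% beside 14.3%. The unadjusted p was under 0.05 for 9 lower members of the 79, which is 11.4% beside 2.04%, and for 2 higher ones, 2.53% beside 3.88%. In spr-5 the members at -1 or less reaching a base mean of 10 were 10 of 97, or 10.3% beside 5.58%, and in met-2 larvae they were 7 of 99, or 7.07% beside 5.85%. Those at 1 or more were 9 in spr-5 larvae, or 9.28% beside 7.67%, and 12 in met-2 larvae, or 12.1% beside 6.67%. All transcripts also passed these cuts more often in the double mutant, so each share is read against all transcripts of its own comparison. A base mean includes the mutant libraries, so a member high in a mutant can reach 10 through that group alone. The 3 comparisons share the N2 libraries, so values of a member that point the same way in several of them are not independent.

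**Figure D2:**
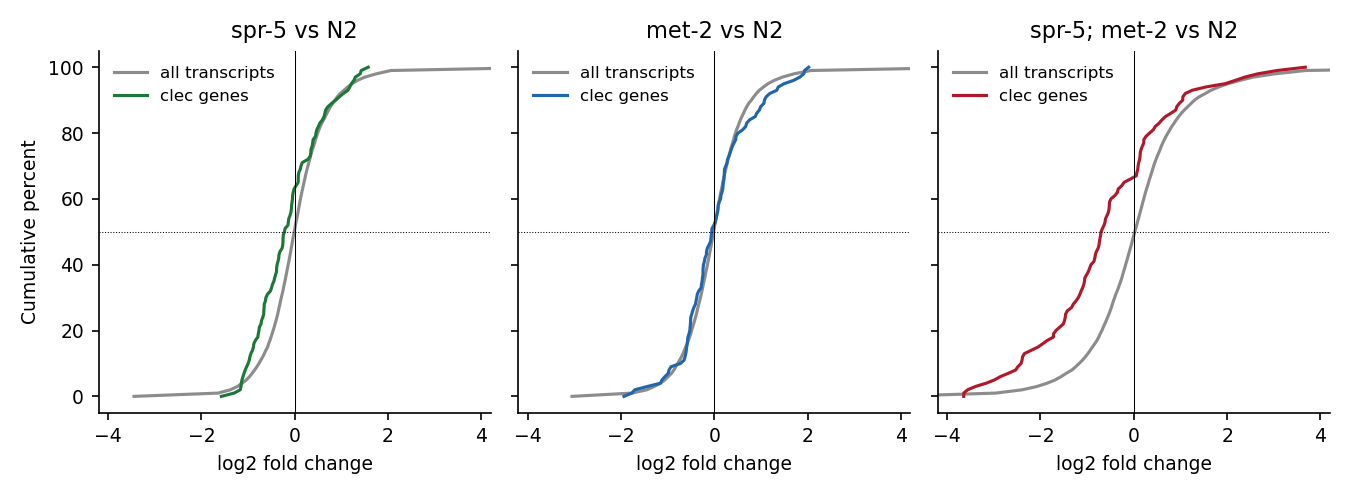
Cumulative percent of clec genes (coloured) and of all transcripts (grey) by log2 fold change against N2, from a base mean of 10 upwards, in each of the authors' deposited tables. The horizontal axis ends near 4 in either direction and leaves out the extremes of all transcripts. The clec curve crosses 50% at -0.22 in spr-5 larvae, -0.05 in met-2 larvae and -0.70 in the double mutant, beside -0.01, -0.01 and 0.02 for all transcripts.

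The member with the smallest p in the double mutant was clec-17, the gene with the second-largest base means of the family. The log2 fold change of clec-17 was -3.19 (SE 0.99, unadjusted p 0.00121, adjusted p 0.109) in the authors' deposited double-mutant table, and -0.88 (SE 0.78) in spr-5 larvae and -0.46 (SE 0.76) in met-2 larvae. Its base mean was 1021 in the double-mutant table of the authors, 1562 in that of spr-5 and 1688 in the met-2 one. clec-72 followed with -3.64 (SE 1.17, unadjusted p 0.00186, adjusted p 0.144) in the double mutant by the authors' deposited table. The values of clec-72 were -1.29 (SE 0.79) in spr-5 larvae and 0.22 (SE 0.72) in met-2 larvae in the authors' deposited tables. clec-48 had -3.50 (SE 1.23, unadjusted p 0.00453) and clec-75 had -3.64 (SE 1.29, unadjusted p 0.00469) in the double mutant. Smaller p-values were found only for clec-17, clec-72 and clec-226, and the base mean of clec-48 was 27.9 in the authors' deposited double-mutant table.

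Among members that have been studied in infection, clec-49, whose protein has been reported to bind Serratia bacteria, had -2.96 (SE 1.37, unadjusted p 0.0303) in the authors' deposited double-mutant table. clec-39, reported to bind the same bacterium, had a base mean of only 1.09 there and the authors' deposited table gave it -0.37 (SE 1.18) on the log2 scale. clec-67, a gene that depends on the p38 kinase PMK-1 in adult worms, had -2.18 (SE 1.05, unadjusted p 0.0382) in the double mutant. Against these, clec-67 in the single mutants spr-5 and met-2 had, by the authors' deposited tables, -0.39 (SE 0.83) and 0.19 (SE 0.78). clec-7 had -2.37 (SE 1.04, unadjusted p 0.0221) in the double mutant, -1.05 (SE 0.82) in spr-5 larvae and -0.67 (SE 0.76) in met-2 larvae, per the authors' deposited tables. The values of clec-4, clec-41 and clec-42 in the double mutant were -1.48 (SE 1.04), 0.17 (SE 0.96) and -1.90 (SE 0.98) in the authors' deposited table, none with an unadjusted p under 0.05. clec-52 had -2.40 (SE 1.28, unadjusted p 0.0614) and clec-70 had -2.24 (SE 1.36) there, per the authors' deposited table.

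The other lower members in the double mutant were clec-87 at -2.81 (SE 1.22, unadjusted p 0.0215) and clec-153 at -2.48 (SE 1.15, unadjusted p 0.0312) in the authors' deposited table. clec-87 overlaps iars-2, which encodes an isoleucyl-tRNA synthetase, on the opposite strand, so its reads are uncertain. Below a base mean of 10, and chosen for mention after their values were seen, clec-240 had -3.34 (SE 1.36, unadjusted p 0.0137) and clec-189 had -2.90 (SE 1.37, unadjusted p 0.0340) in the authors' deposited table.

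Against this lean, 2 members were higher in the double mutant with an unadjusted p under 0.05. For clec-226 the log2 fold change was 3.68 (SE 1.26, unadjusted p 0.00344, adjusted p 0.211) and for clec-32 it was 2.90 (SE 1.26, unadjusted p 0.0209, adjusted p 0.570), as the authors' deposited table has it. The base mean of clec-226 was 50.3 in the double-mutant table of the authors, 2.97 in that of spr-5 and 2.04 in the met-2 one. For clec-32 the base means were 59.8, 8.83 and 4.03 in the authors' deposited tables, in the same order. These base means average the mutant with the N2 libraries, so they restate the fold changes and add no support to them. Both genes are on chromosome V, with 1043 genes between them. In the single mutants spr-5 and met-2, the log2 fold changes of clec-226 were 0.09 (SE 0.71) and -0.04 (SE 0.67), and those of clec-32 were 0.22 (SE 0.86) and -0.45 (SE 0.82), per the authors' deposited tables. The next largest in the double mutant were clec-104 at 2.47 (SE 1.36), clec-214 at 2.21 (SE 1.30) and clec-163 at 1.93 (SE 1.34) in the authors' deposited table, with base means of 10.6, 16.3 and 11.7. In this comparison alone did clec-226, clec-32, clec-104 and clec-163 reach a base mean of 10, through the group in which they were high.

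The smallest absolute log2 fold change that the authors called in the double mutant, over all transcripts, was 3.57. clec-72, clec-75 and clec-226 exceeded it in size, and with standard errors of 1.17 to 1.29 they did not pass. At a base mean of at least 50, the median standard error of the members was 0.82 in spr-5 larvae, 0.77 in met-2 larvae and 1.06 in the double mutant, on the log2 scale of the authors' deposited tables. No test of the double mutant against a single mutant was made, since the tables hold only comparisons with the shared N2.

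**Figure D3:**
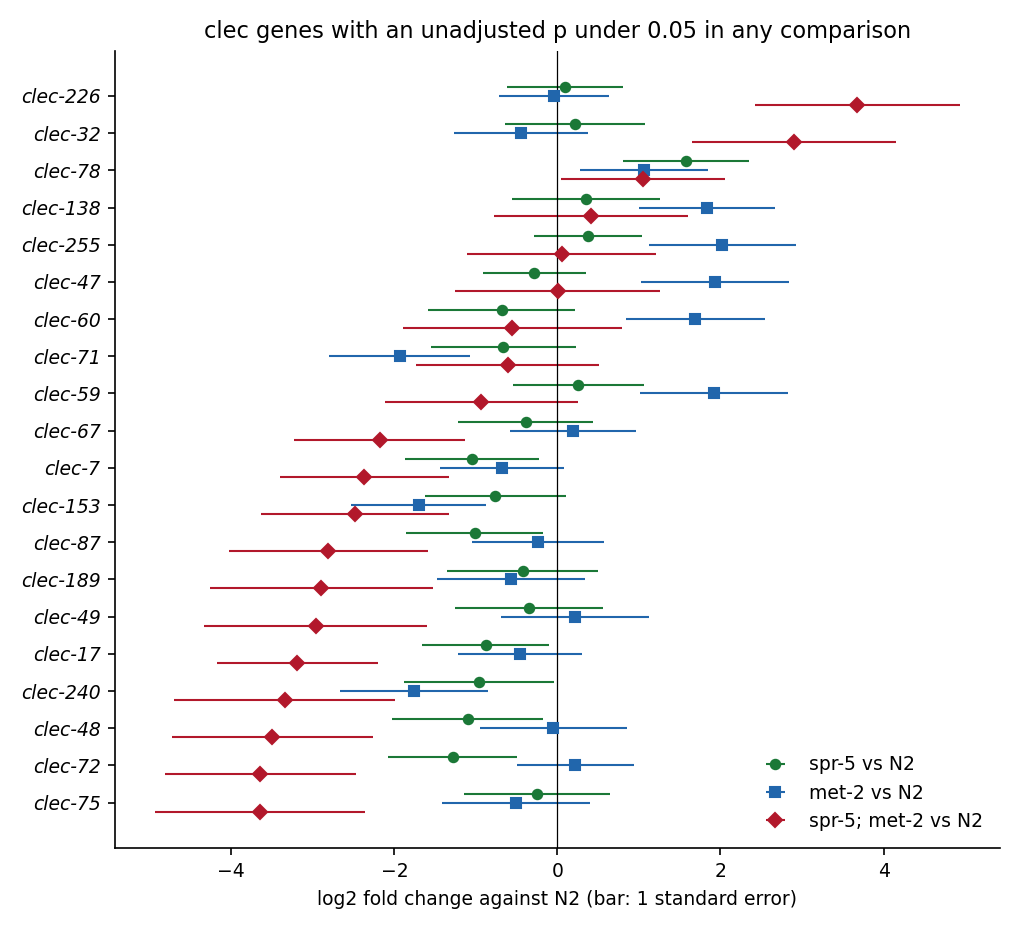
Log2 fold change against N2 (point) and 1 standard error (bar) in the authors' deposited tables, for the clec genes with an unadjusted p under 0.05 in any comparison, ordered by the double mutant. The double-mutant values run from -3.64 for clec-75 to 3.68 for clec-226. The positive values of clec-59, clec-60, clec-47, clec-138 and clec-255 in met-2 larvae lie above the double-mutant values of the same genes, a difference that was not tested. These genes are shown because of their met-2 values, which favours such a difference. In the double-mutant comparison clec-59, clec-60, clec-47 and clec-255 had base means under 10.

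clec genes often lie beside one another. In the RefSeq gene table of assembly WBcel235, 137 of the 264 clec symbols stand in 45 rows of at least 2 clec genes with no other protein-coding gene or pseudogene between them. Of the 223 members 113 are in such rows. Chromosome V holds 81 members, IV holds 49, II holds 44, I holds 32, III holds 14 and X holds 3. From a base mean of 10 upwards, the median of the members in the double mutant was -0.85 on I, -0.35 on II, -0.57 on III, -0.97 on IV and -0.70 on V, per the authors' deposited table, and the 1 such member on X had -0.77.

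The longest row, 13 clec symbols on chromosome V, has 11 members, and all but clec-32 had double-mutant values below 0, beside 73.2% of all members tested. Only 5 of the 11 reached a base mean of 10 in that comparison, and 4 of those 5 lay below 0, beside 65.8% of all members at that level. The base means of clec-22, clec-24, clec-26, clec-27, clec-35 and clec-40 were under 10 there, a range in which all transcripts lean below 0 as well. In the authors' deposited double-mutant table, clec-25 had -1.72 (SE 1.26), clec-36 had -1.72 (SE 1.23), clec-37 had -1.63 (SE 1.14), clec-27 had -1.67 (SE 1.36) and clec-40 had -1.21 (SE 1.35). The other members of the row, clec-22, clec-24, clec-26, clec-31 and clec-35, ranged from -0.82 to -0.31 there, none with an unadjusted p under 0.05. clec-32 with its 2.90 thus stood inside a row of genes of similar coding length, 1041 to 1188 bp, whose values pointed the other way. Neighbours that are near-identical copies can share reads, and how alike these sequences are was not measured.

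On chromosome IV, clec-67, clec-68, clec-70, clec-71 and clec-174 form a row, and clec-72 follows with 1 gene other than clec genes between. Coding lengths of clec-67, clec-70, clec-71 and clec-72 are 1401, 1398, 1401 and 1398 bp. The double-mutant values of clec-67, clec-68, clec-70 and clec-72 were -2.18, -1.85, -2.24 and -3.64 in the authors' deposited table, while clec-71 had -0.61 (SE 1.13) and clec-174 had -0.19 (SE 1.36). Of these, clec-68, clec-70 and clec-174 had base means under 10 there. clec-71 was the member with the lowest value in met-2 larvae, where its neighbours in the row ranged from 0.08 to 0.22 in the authors' deposited table. On chromosome III, clec-151 and clec-153, with the pseudogene clec-152 between, had -2.39 (SE 1.29) and -2.48 (SE 1.15) in the double mutant. In order, clec-151 and clec-153 had -1.12 (SE 0.91) and -1.70 (SE 0.83) in met-2 larvae and -0.69 (SE 0.93) and -0.76 (SE 0.86) in spr-5 larvae, per the authors' deposited tables.

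The row around clec-63 on chromosome II did not share this. Its members clec-63, clec-64, clec-65 and clec-66 in the double mutant had 0.05, 0.29, -0.53 and -0.35 in the authors' deposited table, each within 1 standard error of 0. In another row on chromosome V, clec-54 had 0.22 (SE 1.04) and its neighbours clec-55, clec-56, clec-57 and clec-227 had -1.66, -0.66, -0.74 and -1.62 in the authors' deposited double-mutant table. clec-49 and clec-50, adjacent on chromosome V with 963 bp of coding length each, had -2.96 (SE 1.37) and -1.46 (SE 1.07) there. clec-48, also of 963 bp but 369 genes away from clec-49, had -3.50, per the authors' deposited table.

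**Figure D4:**
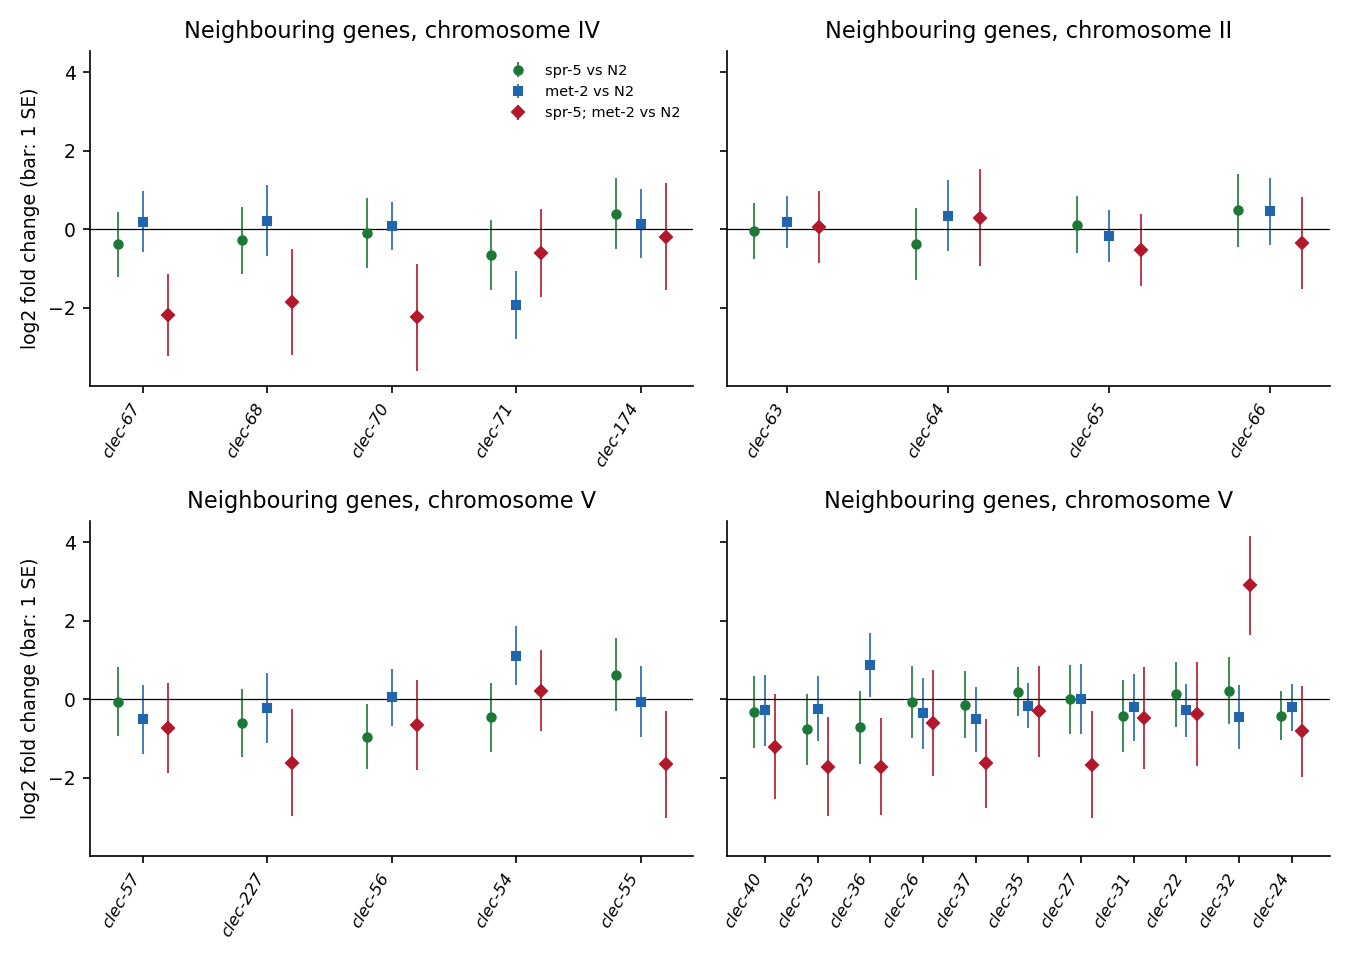
Log2 fold change against N2 (point) and 1 standard error (bar) in the authors' deposited tables for 4 rows of neighbouring clec genes, in their order along the chromosome (not to scale). clec-67, clec-68 and clec-70 lie between -2.24 and -1.85 in the double mutant, while clec-71 lies at -0.61 and clec-174 at -0.19. Of that row, clec-68, clec-70 and clec-174 had base means under 10 there. The clec-63 row lies between -0.53 and 0.29, and clec-32 lies at 2.90 within the long row on chromosome V.

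Other genes of innate immunity were set beside the family. These were lysozymes, which cut bacterial cell walls, antimicrobial peptides such as saposin-like proteins and caenacins, signalling and transcription genes of the response, and other effectors reported to respond to bacteria. No member of these 4 lists passed the authors' adjusted p of 0.05 in any comparison. Of 15 lysozyme genes tested, 1 was lower at an unadjusted p under 0.05 in the double mutant and 1 in met-2 larvae, and 0 in spr-5 larvae. Of all transcripts 1.07%, 0.519% and 0.283% were lower by that measure, in the same order. The former was lys-7, an intestinal lysozyme, with a log2 fold change of -2.50 (SE 1.19, unadjusted p 0.0359) in the double mutant, 0.16 (SE 0.75) in met-2 larvae and -1.32 (SE 0.78) in spr-5 larvae in the authors' deposited tables. The latter was lys-3, with -1.89 (SE 0.85, unadjusted p 0.0260) in met-2 larvae and 0.22 (SE 1.08) in the double mutant by the authors' deposited tables.

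Of 6 lysozyme genes that reached a base mean of 10 in the double mutant, 5 lay below 0, and the authors' deposited table gave a median of -0.90. For antimicrobial peptides it was 17 of 28 with a median of -0.13, and for other effectors 4 of 5 with a median of -0.61. Of all transcripts from that base mean upwards, 48.8% lay below 0. The signalling and transcription genes had 6 of 18 below 0 and a median of 0.55, among them pmk-1, the p38 kinase of the response, at 0.88 (SE 0.98) in the authors' deposited table. In met-2 the medians in the authors' deposited table were 0.10 for lysozymes, -0.38 for antimicrobial peptides, -0.06 for other effectors and -0.10 for signalling and transcription. In spr-5 they were -0.50, -0.23, 0.05 and -0.16 in the same order, per the authors' deposited table. None of the antimicrobial peptide, signalling or other effector genes had an unadjusted p under 0.05 in any of the authors' deposited tables. By that measure 1.74% of all transcripts were higher and 1.07% lower in the double mutant, so lists of this size say little here.

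Several clec genes are known from the intestine, so 17 intestine markers were examined as well, and all of them were detected. Of the 16 that reached a base mean of 10 in the double mutant, 10 lay below 0, beside 48.8% of all such transcripts. The authors' deposited table gave these 16 a median of -0.33, a lowest value of -1.22 and a highest of 0.83. The median was 0.19 in met-2 larvae and -0.14 in spr-5 larvae. Their base means summed to 25288 in the double-mutant table of the authors, 37725 in the met-2 one and 32270 in that of spr-5. The single gene asp-1 held 13783, 24087 and 19955 of these in the same order, and each base mean pools the mutant with N2. elt-2, the main transcription factor of the intestine, had 0.57 (SE 0.95) in the double mutant and act-5, the actin of its brush border, had -0.51 (SE 1.10), per the authors' deposited table. No intestine marker had an unadjusted p under 0.05 in any table. Of all transcripts, 1.74% were higher and 1.07% lower by that measure in the double mutant, so none among 17 markers says little. Their part in the values of the clec genes was not tested.

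Markers of other tissues were examined too. All 4 muscle markers tested in the authors' deposited double-mutant table lay below 0, with a median of -0.54, as did the 5 hypodermis markers tested, with a median of -0.97. Of all transcripts tested, 56.8% lay below 0. The 4 muscle markers all reached a base mean of 10, where 48.8% of all transcripts lay below 0. The hypodermis markers dpy-7, rol-6 and dpy-13 had base means of 0.545, 1.91 and 3.27, a range in which all transcripts lean below 0. The 2 hypodermis markers that reached a base mean of 10 had a median of -1.31. The 4 neuron markers tested had a median of 0.05, with 2 below 0. The 5 germline markers tested had a median of 1.31, with nos-2 at -1.23 (SE 1.26) and pgl-1 at -0.82 (SE 1.17) below 0 and base means of 2.10 and 0.817. Unlike those of the lists above, the medians over markers tested had no minimum base mean. From a base mean of 10 upwards, 3 neuron markers had a median of 0.34, with 1 below 0. At that level 3 germline markers had a median of 2.77, with 0 below 0. The cut leaves out nos-2 and pgl-1. The germline marker deps-1 reached 10 in this comparison alone, through the group in which it was high. The values from that cut thus add no support. Of the germline markers, glh-1 (2.96, SE 0.97, unadjusted p 0.00238) and mex-5 (2.77, SE 0.99, unadjusted p 0.00512) were the ones higher at an unadjusted p under 0.05 in the double mutant by the authors' deposited table. In met-2, glh-1 had 1.68 (SE 0.72, unadjusted p 0.0198) and sqt-3, a cuticle collagen, had 1.98 (SE 0.75, unadjusted p 0.00841) in the authors' deposited table. Of all transcripts, 1.74% were higher at an unadjusted p under 0.05 in the double mutant and 0.901% in met-2 larvae. No marker passed the adjusted p of 0.05, and their part in the clec values was not tested either.

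**Figure D5:**
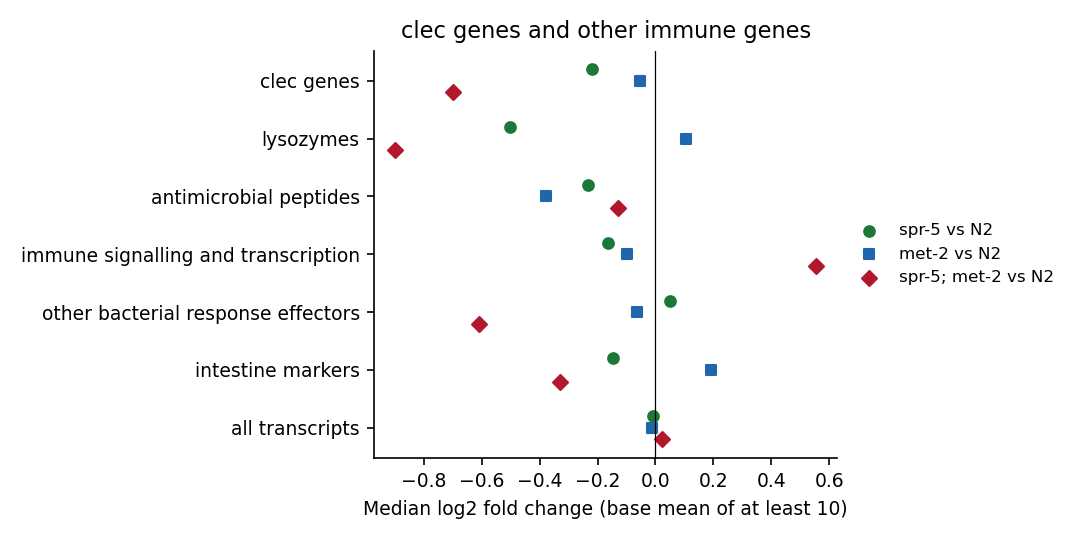
Median log2 fold change against N2 of clec genes, of 4 lists of other immune genes, of intestine markers and of all transcripts, from a base mean of 10 upwards in each of the authors' deposited tables. In the double mutant the clec genes lie at -0.70, the lysozymes at -0.90, the intestine markers at -0.33 and the signalling genes at 0.55, beside 0.02 for all transcripts.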

How the data were processed

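RNA-seq of 8 libraries in 4 groups was compared by the authors, each mutant group with N2. Per the submitters' processing notes, reads were handled with FastQC, Trimmomatic and featureCounts, on genome build ce10, and tested with DESeq2 2.11.40.2. The aligner, annotation and use of strand are not given in the sources used here. The authors deposited 3 tables of 50832 RefSeq transcripts. Base means, as deposited, are a signal: reads scaled for depth by the authors and averaged over 4 libraries. The deposited log2 fold change and standard error are on the log2 scale, shrunken towards 0 for few reads. The deposited Wald score is their ratio, and beside it stand the authors' p-value and its adjusted form, the latter absent for many transcripts with few reads.

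Symbols came from the RefSeq gene table of WBcel235, which differs from ce10, so no position is given. Of the transcripts, 46074 (90.6%) matched. Coding lengths and overlaps came from the Ensembl annotation of WBcel235, longest coding sequence per gene. Protein and promoter sequences were not used here, so planned motif counts were not made. Counting by transcript can drop reads that isoforms share: 19.7% of protein-coding genes with several transcripts were listed at 0, beside 3.93% of those with 1, and clec-199, with 16 transcripts, was listed at 0.

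Counts, medians and Benjamini-Hochberg values were computed in Python 3.11.15 with pandas 2.3.3, and the adjustment was tested on simulated data. Members and lists were chosen with earlier results of these data known. Named genes are, per table and from a base mean of 10 upwards, the 5 highest and 5 lowest fold changes and those with an unadjusted p under 0.05, the 5 largest base means, members known from infection studies, and list members with the smallest unadjusted p under 0.05. Neighbours of named genes, clec-90, clec-199 and clec-231 fall outside that rule. So do list genes named without an unadjusted p under 0.05, such as elt-2, act-5, asp-1 and pmk-1. All of these were chosen after their values were seen. clec-85, planned as a gene known from infection studies, is not a member and is left out. Alternatives were a stricter p, recomputed adjustment, minimum base means, centring and another choice of transcript.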

Additional observations from a re-analysis of the deposited data

How the results depend on the processing

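The count of 0 clec genes past the adjusted p of 0.05 stayed 0 in all 3 comparisons at an adjusted p under 0.01, with Benjamini-Hochberg adjustment over every p-value of the table (smallest value 0.245, in the double mutant), with a minimum base mean of 10, and with the transcript of the largest base mean in each table. At an unadjusted p under 0.01, in place of 0.05, the members fell from 1 to 0 in spr-5, from 7 to 0 in met-2 and from 13 to 5 in the double mutant, by the stricter threshold itself. The share of all transcripts under 0.01 was not counted, so these counts cannot be set against transcripts in general. The median log2 fold change in spr-5 was 0.08 over all members and turned to -0.22 with a base mean of at least 10 and to -0.56 with at least 50. The cause was not tested. In met-2 the median of -0.02 became 0.0021 after centring on the median of the transcripts from a base mean of 50 upwards, so it has no firm direction. In the double mutant the median of -0.63 stayed negative in its 4 alternatives, from -0.73 with a base mean of at least 50 to -0.63 with the other choice of transcript. No paired analysis was possible because no value of a single library was in the tables used, and leaving out each replicate was not run for the same reason. Depth limits many members, since 108 of 223 stayed under a base mean of 10 in all tables, and at a base mean of 50 or more the median standard error was still 0.77 to 1.06 with 2 libraries a group.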

Other observations

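Genes with several RefSeq transcripts were mostly at or near 0 in this family. Of the 18 clec genes with more than 1 transcript in the authors' deposited tables, 5 were listed at 0 throughout and 2, clec-146 and clec-266, reached a base mean of 10 in any table. Of the 216 clec genes with 1 transcript, 6 were listed at 0 and 113 reached a base mean of 10. Over all protein-coding genes, 19.7% of those with more than 1 transcript and 3.93% of those with 1 were listed at 0. Of the 271 with at least 5 transcripts it was 35.1%. atf-7 and fshr-1, regulators of the immune response with 2 transcripts each, were also listed at 0 in each of the authors' deposited tables, as was the kinase gene pmk-3, which has 1. A value of 0 is not read here as a lack of expression.

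clec-266 on chromosome X had a base mean of 14.9 in the authors' deposited spr-5 table, beside 0.789 for met-2 and 0.545 for the double mutant in the others. Each averages the mutant with the N2 libraries, so it is not a finding apart from the fold change. The log2 fold change of clec-266 in spr-5 was 1.40 (SE 0.90), without an unadjusted p under 0.05, and it overlaps kqt-1 on the opposite strand, so with the use of strand not given its reads are uncertain.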
